A study of Drosophila melanogaster with 8 samples.

Results

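The 2 control libraries of a 3' end sequencing series of 8 libraries were described on their own, to give the use of poly(A) sites in bam mutant testes before any factor was overexpressed. They were chosen by genotype. Both came from males of the genotype nosGal4/Y;+/+;bam86,bamGal4/bam1, which carry the nos and bam Gal4 drivers but no UAS transgene, and none of the 6 overexpression libraries was used. Each library held the RNA of 150 pairs of testes. Parents mated at 25 degrees for 3 days, their offspring were then raised at 29 degrees, and the labels give no age. The labels number the libraries as duplicates and do not state separate cultures, so the spread given here may be technical.

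The bam gene is needed for spermatogonia to stop dividing and become spermatocytes, so testes without its function fill with proliferating early germ cells. A transcript ends where the nascent RNA is cleaved and a poly(A) tail is added, and many genes have more than one such place. The site nearest the start of the gene, called proximal, gives the shorter 3' UTR, the stretch after the coding region that RNA-binding proteins and microRNAs recognise. The distal site gives the longer one.

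Reads were counted in 1082 windows of 529 entries, each a gene and a transcript, for 522 gene symbols. Of these entries, 505 have 2 windows and 24 have 3. The windows came from a list of sites named for bam against spermatocytes, so the genes are a selected group. The sources used here do not say how it was drawn up. Reads at all windows came to 258161 in library 1 and 333675 in library 2, which are sums over the listed windows and not the depth of the libraries. The germ line markers vas, nos and bam were not analysed here, and of 10 germ line markers only CycA was. Thus the tissue label could not be checked against the genes that define it. Of 9 cyst cell and hub markers 3 were measured. They were Imp, chinmo and zfh1, which had 3483, 1312 and 341 reads in library 1 and 4325, 2254 and 508 in library 2. These are whole testes, so the reads of a gene cannot be assigned to a cell type. Fewer cells of a type and less RNA per cell cannot be told apart either.

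Most of these selected entries used the distal site mainly, and the part of the selection in this was not tested. Proximal share is the percentage of an entry's listed reads that lie in the window nearest its start. It was measured in 517 entries with a mean of 10 or more reads and at least 1 read in each library. The median over entries was 18.7% in library 1 and 17.8% in library 2, or 19.3% for the mean of both libraries per entry, with quartiles of 6.29% and 36.6%. Proximal share was under 5% in 118 entries, between 5% and 25% in 195, and between 25% and 50% in 126. It was above 50% in 78 entries, of which 21 were at 75% or more. The proximal site held the majority of reads in both libraries for 62 entries and in neither for 422. In the other 33 the majority site differed between the libraries. Of all listed reads, 29.6% in library 1 and 29.1% in library 2 were proximal, above the median entry. This pooled value weights entries by their reads, and why it was higher was not tested.

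**Figure D1:**
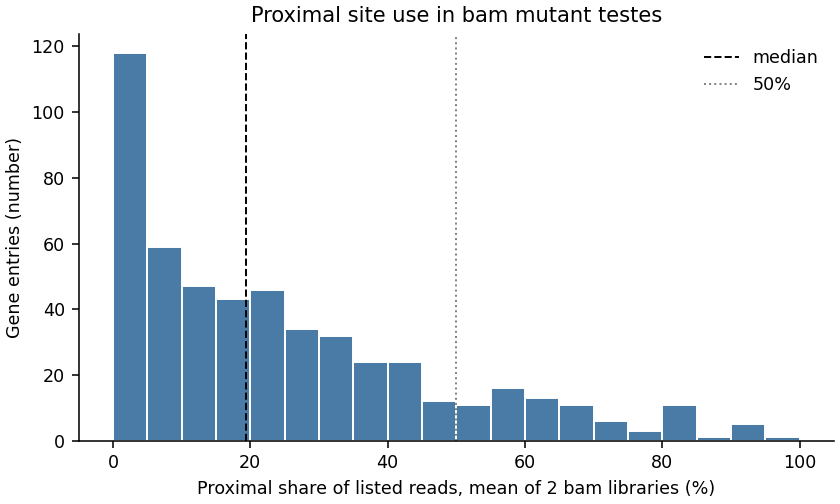
Number of gene entries (y axis) by proximal share in percent, mean of the 2 bam libraries (x axis, bars of 5 points). The lowest bar holds 118 of the 517 entries, the dashed line is the median of 19.3%, and 78 entries lie above 50%.

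The 8 entries with the most reads ranged in mean proximal share from 2.12% to 65.3%. The DEAD-box helicase gene mahe had 5363 reads in library 1 and 8300 in library 2, ranks 2 and 1, with proximal shares of 68.0% and 54.3%. The Y-box RNA-binding protein gene yps had 5610 and 7486 reads, ranks 1 and 3, with shares of 46.2% and 38.6%. In both genes library 1 had the higher share, by the exact Fisher test between libraries described further on (adjusted p = 1.22e-55 for mahe and 4.59e-16 for yps). The gene heph, which encodes the polypyrimidine tract-binding protein, had 4679 and 7876 reads and shares of 19.2% and 20.3%. CG4502 had 4361 and 6226 reads and shares of 43.3% and 35.2%. In chrb, a homologue of the mammalian TOR inhibitor REDD1, the proximal site held 58.2% of 4006 and 65.4% of 5135 reads. In Imp, an RNA-binding protein of the IGF2BP family, it held 56.7% of 3483 and 62.3% of 4325 reads. The Imp windows overlap another gene on the same strand, so its reads are uncertain. CG46280 stood at 69.5% and 61.2%. Usp7, a ubiquitin-specific protease with 3326 and 3855 reads, stood apart from these genes with proximal shares of 2.38% and 1.87%.

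Reads were concentrated in a minority of entries. The 10 most abundant held 15.5% of listed reads in library 1 and 16.4% in library 2, and the 100 most abundant held 59.9% and 60.6%. Of the top 10 of each library 8 were shared, of the top 50 there were 43, and of the top 100 there were 89. The median entry moved by 25 ranks. Spearman's rho of reads between libraries was 0.96 over 517 entries, as a description, since genes are not independent replicates. After scaling to the listed total, 33 entries differed more than 2-fold between the libraries, 6.38% of those measured, 18 higher in library 1 and 15 higher in library 2. The largest move in rank, 155 places, was that of bon, a TIF1-family chromatin cofactor, with 153 reads in library 1 and 485 in library 2. Its proximal shares were 30.7% and 34.0%, and its windows overlap a gene on the opposite strand. The phosphatase gene Pp2C1 moved the other way, with 289 and 161 reads. Between mean reads and mean share rho was 0.07. Shares above 50% were found in 4 of 20 entries with 10 to 49 reads. They made up 5.08% of entries with 50 to 99 reads, 16.5% with 100 to under 200, 13.5% with 200 to under 500, 11.7% with 500 to under 1000 and 26.6% with 1000 or more, with no steady order by reads.

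At the silent end, 23 entries had no proximal read in either library, 11 of them with a mean of 100 or more reads. Their proximal windows stand on the supplied list, and reads of these 2 libraries did not place them there. How they came to be listed under the site minimum of 0.05 in the run log was not tested. The exportin 6 gene ebo had 0 of 467 and 0 of 604 reads at its proximal window. Taking 3 counts as the limit that a count of 0 allows, its share could be up to 0.642% and 0.497%. Herp, a component of endoplasmic reticulum-associated degradation, had 0 of 497 and 0 of 527. For Herp 3 counts allow up to 0.604% and 0.569%, and the exact intervals reach 0.739% and 0.698%. These limits cover counting error only, because reads carried no molecular identifiers. The ENL/AF9 homologue ear, which has 3 windows, had 0 of 187 and 0 of 255 reads at the first. Trc8, a membrane ubiquitin ligase, had 0 of 220 and 0 of 415, CG3982 had 0 of 280 and 0 of 374, and CG42590 had 0 of 190 and 0 of 248. Windows of Trc8, CG3982 and CG42590 overlap another gene. Proximal windows of ebo and Herp lie in annotated 3' UTRs, on BDGP6 at chromosome X (471679 to 471709) and 2L (7796751 to 7796781).

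At the opposite end, the 6 highest entries had mean proximal shares of 85.9% to 96.1%. In bin3, a methyltransferase that caps the 7SK RNA, the proximal site held 2803 of 2898 reads in library 1 and 2856 of 2991 in library 2. These shares of 96.7% (95% exact binomial interval 96.0% to 97.3%) and 95.5% (94.7% to 96.2%) gave the highest mean share measured. The transcription factor gene ewg had 711 of 760 and 762 of 794 reads at its proximal site, or 93.6% and 96.0%. CG2201 had 96.4% of 55 reads and 91.1% of 146, and CG7766 had 93.6% and 90.9%. The COPII coat gene Sec24AB had 88.3% and 93.0%, and the meiotic recombination gene mei-218 had 97.1% and 74.7%. Windows of Sec24AB and mei-218 overlap another gene, on the opposite strand in the first and on both strands in the second, and counting ignored strand. The windows of ewg lie on chromosome X (proximal 270487 to 270517, distal 269614 to 269644), both in its 3' UTR.

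Among the 6 entries with a mean share nearest 50%, 4 were close to an even split in both libraries. The kinase gene cdi came closest, with 104 of 206 reads (50.5%) and 174 of 352 (49.4%). The mitochondrial dicarboxylate carrier gene Dic1 had 48.8% and 53.3%, and the deubiquitinase gene Usp16-45 had 46.9% and 52.2%. CG6961, with windows that overlap a gene on the opposite strand, had 44.5% and 54.3%. None of these 4 genes passed the exact Fisher test between libraries described next (lowest adjusted p = 0.123, CG6961). They were set apart by their like shares, so this outcome was in part fixed by the choice and does not show equal shares. The other 2 reached a mean near 50% from unlike libraries. Deaf1, a transcription factor, had 58.0% and 44.8%, and the kinase gene IKKepsilon, whose windows overlap a gene on the opposite strand, had 37.4% and 59.7%.

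The 2 libraries differed by more than counting error. The median difference in proximal share was 4.78 points. The difference expected from binomial counting error, computed per entry by a normal approximation, had a median of 1.81 points. A two-sided exact Fisher test on proximal and other reads, adjusted by Benjamini and Hochberg, called 234 of 517 entries, 45.3% of those measured. It compares these 2 libraries and not conditions. Its p-values, like the intervals, take each read as an independent molecule and cover counting error only, so they are too small where reads are copies of one molecule. The share was called higher in library 1 in 106 entries (20.5% of the 517) and in library 2 in 128 (24.8% of the 517). The difference was under 5 points in 49 of the called entries. Pearson's r of the shares was 0.87 and Spearman's rho 0.84 over the 517 entries, given as descriptions. Differences over 10 points were seen in 144 entries and over 20 points in 47.

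**Figure D2:**
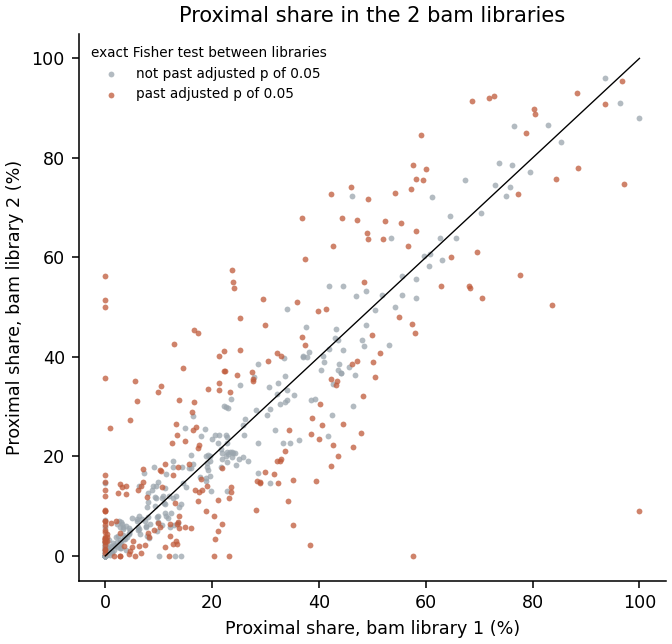
Proximal share in bam library 1 (x axis, percent) against bam library 2 (y axis, percent) for 517 entries, with the line of equality. Red points are the 234 entries past an adjusted p of 0.05 by the exact Fisher test between the libraries, grey points the others; several red points lie on the left edge, at 0 in library 1.

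Deeper entries were more alike between libraries, but in each of 6 read classes the median difference exceeded that of counting error. In entries with a mean of 10 to 49 reads the median difference was 12.2 points, against 4.96 from counting error. It was 5.19 points, against 2.03, in entries with 200 to under 500 reads, and 2.87 points, against 0.838, in entries with 1000 or more. The Fisher test called 47 of 79 entries (59.5%) in the deepest class and 5 of 20 (25.0%) in the shallowest, against 45.3% of all 517. In the classes between, in order of reads, it called 35.6%, 40.4%, 49.4% and 42.6%. With more reads the test can call a smaller difference, so these percentages do not measure the size of the spread. At the median of 269 reads in library 1, a share of 25% has a 95% exact binomial interval of 19.9% to 30.5%. At the median of 345 reads in library 2 it is 20.5% to 29.8%.

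**Figure D3:**
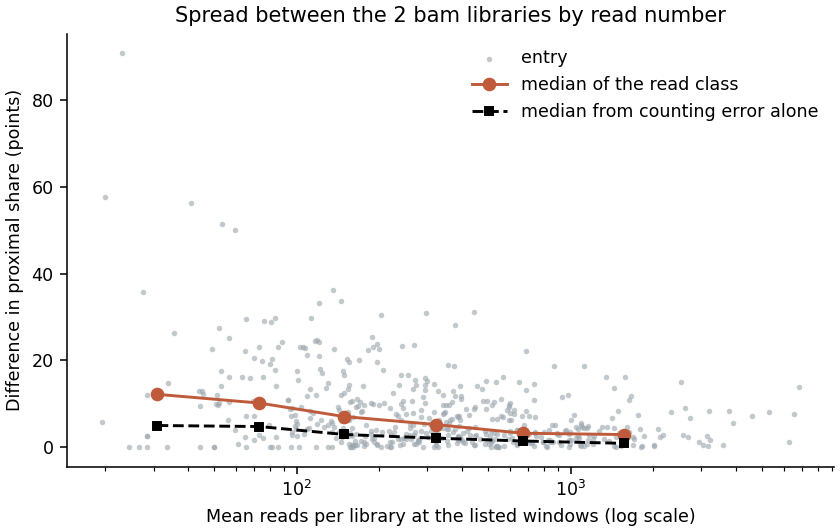
Absolute difference in proximal share between the 2 bam libraries (y axis, points) by mean reads per library (x axis, log scale). Grey points are entries, red circles the medians of 6 read classes (12.2 points in the lowest, 2.87 in the highest) and black squares the medians expected from counting error alone (4.96 and 0.838).

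Among 411 entries with 100 or more reads in each library, the largest differences were in genes of several kinds. In sky, a Rab GTPase-activating protein, the proximal site held 53 of 138 reads (38.4%) in library 1 and 3 of 133 (2.26%) in library 2. In stwl, a DNA-binding protein that germ cells of the ovary need, the first of 3 windows held 84 of 351 reads (23.9%) and 294 of 534 (55.1%). The middle window of stwl held 53.8% and 31.8%, and the last 22.2% and 13.1%, so that the first 2 windows together held 77.8% and 86.9%. CycT is the cyclin of the elongation kinase P-TEFb and the one measured gene on the list for cleavage and polyadenylation. It had 200 of 434 (46.1%) and 239 of 322 (74.2%) reads at the proximal site. The share of gdl-ORF39 was 83.6% and 50.4%, that of CG4911 was 36.8% and 67.8%, and that of CG11357 was 42.3% and 72.8%. Rnf146, a ubiquitin ligase, had 59.1% and 84.6%, and CG6051 had 0.855% and 25.6%. These 8 were chosen for the size of the difference, which is therefore given without a test. Library 1 was higher in sky and gdl-ORF39 and library 2 in the other 6; windows of sky and gdl-ORF39 overlap another gene on the same strand.

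Windows with no read in 1 library were unevenly divided. Library 1 had 0 reads at 89 windows and library 2 at 48. There were 15 windows with 0 reads in 1 library and 20 or more in the other, and 14 of them were empty in library 1. Of these 15 windows 13 were proximal. The proximal window of pns held 0 of 284 reads in library 1 and 48 of 402 in library 2. That of Usp10, a deubiquitinase, held 0 of 780 and 44 of 1142, and that of Usp8, a deubiquitinase of the endosome, 0 of 338 and 24 of 386. Some small entries gave larger shifts of this kind. The GTPase gene Rab30 had 0 of 41 and 39 of 78 reads, and mei-W68, the fly Spo11, had 0 of 11 and 40 of 71. Windows of pns, mei-W68 and Nhe1 overlap another gene. Among the 15 windows, only the proximal window of the sodium/proton exchanger Nhe1 was empty in library 2. It held 25 of 108 reads in library 1 and 0 of 63 in library 2. Library 1 also had the lower listed total. The part of depth in these zeros was not tested.

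The outermost windows of an entry lay a median of 440 bp apart, centre to centre, with quartiles of 237 and 758 bp. Spacing was under 200 bp in 98 entries, 200 to under 500 bp in 203, 500 to under 1000 bp in 144 and 1000 bp or more in 72. Across entries, spacing and proximal share had a Spearman's rho of 0.04, given as a description. The median share was 21.7% in the closest class, 15.7% at 200 to under 500 bp, 16.0% at 500 to under 1000 bp and 28.0% at 1000 bp or more. Shares above 50% made up 8.16% of the closest class, 11.3%, 18.8% and 27.8% of the others in the same order. Nearly silent proximal sites, under 5%, made up 11.2%, 25.6%, 29.2% and 18.1%. The middle classes held the lowest medians. The percentage of entries above 50% was highest in the widest class, with 20 of 72 entries, although the class of 500 to under 1000 bp held more such entries, 27 of 144. No test was run on these classes, since the genes are not replicates.

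**Figure D4:**
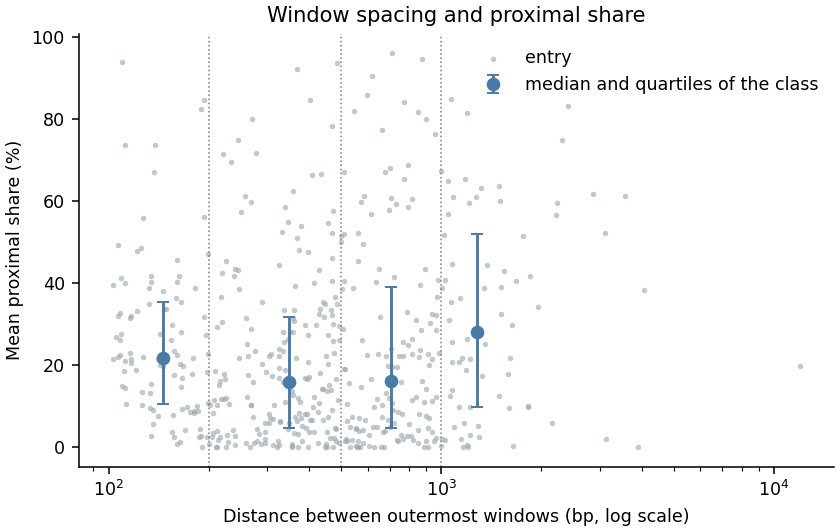
Mean proximal share (y axis, percent) by distance between the outermost windows (x axis, bp, log scale) for 517 entries in grey. Blue circles with bars are the median and quartiles of 4 spacing classes parted by dotted lines at 200, 500 and 1000 bp, with medians of 21.7%, 15.7%, 16.0% and 28.0%.

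The widest spacing was that of Fs(2)Ket, the importin beta gene on 2L, at 11957 bp between its first window (20738959 to 20738989) and its last (20750916 to 20750946). Its proximal share was 21.9% and 17.7% of 1737 and 2445 reads. Adar, the adenosine deaminase that edits RNA, had 46.3% and 30.2% of 54 and 96 reads over 4067 bp. The helicase gene mahe, over 3561 bp, and Usp10, over 3117 bp, are given above, and the netrin gene NetB had 0 of 18 and 0 of 49 reads over 3913 bp. Windows of Fs(2)Ket and Adar overlap another gene. At the narrow end, CG1371 and CG1840 have windows 103 bp apart and CG6565 and CG6961 107 bp apart, with emei between them. Shares were 9.90% and 33.0% in CG1371, 38.2% and 41.0% in CG1840, 26.1% and 27.6% in emei, and 27.8% and 36.0% in CG6565. Windows of CG1371 and CG6961 overlap a gene on the opposite strand. The 5 widest entries ranged in mean share from 0% to 61.1%, and the 5 narrowest from 21.5% to 49.4%.

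Neighbouring windows of 1 entry lay under 100 bp apart in 8 of 553 pairs, all of them the first and second windows of 3-window entries. Their counts were nearly the same within each library. In CG12992, with centres 31 bp apart, they were 17 and 17 reads in library 1 and 87 and 85 in library 2. In Dnz1, at 84 bp, they were 79 and 82 reads in library 1 and 79 and 75 in library 2. In cal1, a factor that loads the centromeric histone, at 74 bp, they were 172 and 184 reads in library 1 and 270 and 286 in library 2. In CG42507, at 70 bp, they were 15 and 16 reads and 41 and 42. The pair of lmgB, at 57 bp, was less even, with 132 and 106 reads and 203 and 169. In the other 3 entries these windows held 2 reads or fewer. These 5 entries each overlap another gene. The next closest pairs, in CG1371, CG1840 and emei, had unlike counts, with 10 and 91 reads in library 1 and 36 and 73 in library 2 in CG1371. Whether the same reads were counted in both windows was not tested, and the shares of these 8 entries are uncertain.

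In 23 measured entries with 3 windows, the last was the most used in 15, the middle one in 7 and the first in 1. The median share was 10.2% for the first, 18.9% for the middle and 63.0% for the last window. Fs(2)Ket followed this order only at its ends: its windows held 21.9%, 5.64% and 72.4% of reads in library 1 and 17.7%, 4.29% and 78.0% in library 2. Idh3b, a subunit of the isocitrate dehydrogenase of the citric acid cycle, was led by its middle window. It held 15.6%, 50.3% and 34.0% in library 1 and 17.7%, 59.7% and 22.6% in library 2. CG6230 was likewise led by the middle window, with 56.2% and 43.9%, and its windows overlap a gene on the opposite strand. In cal1 the shares were 33.5%, 35.8% and 30.7% in library 1 and 39.7%, 42.1% and 18.2% in library 2. In Dnz1 they were 14.6%, 15.2% and 70.2% and 14.6%, 13.9% and 71.5%.

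By the annotation of BDGP6, 521 of 529 proximal windows and 447 distal windows have their centre in a 3' UTR, and 74 distal windows lie past the annotated end of the gene. A centre within 30 bp of an annotated transcript end was found for 112 proximal windows (21.2%) and 347 distal windows (65.6%). Both windows of an entry did so in 49 measured entries, whose median proximal share was 31.1%. It was 16.7% in the 295 entries where the distal window alone did, 19.9% in the 58 where the proximal window alone did, and 20.9% where neither did. The proximal site led in 30.6% of the entries with both at an end, in 11.5% with the distal window alone, in 8.62% with the proximal window alone and in 20.9% with neither. Entries with a window that overlaps another gene numbered 148 of those measured, and their median share was 21.1%, against 17.9% in the 369 without one. The libraries differed by the Fisher test in 77 of the 148 overlapping entries and in 157 of the 369 others, against 234 of all 517. The called percentage was thus higher in the overlapping entries. The cause of this difference was not tested.

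Site use also varied between chromosome arms, with wide overlap of the quartiles. The median proximal share was 11.7% in 97 entries on 2L (quartiles 3.92% and 26.1%), 18.6% in 96 on 2R, 22.6% on 3L and 19.8% in 123 on 3R. On X it was 23.7% in 78 entries (quartiles 11.1% and 38.5%), and on chromosome 4 it was 15.0% in 8. Shares above 50% made up 8.25% of entries on 2L, 21.7% on 3L and 19.2% on X.

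Genes of known function were then described by lists, beside the median of 19.3% for all entries. Of 21 genes on the list for vesicle traffic and cytokinesis 7 were measured, with a median proximal share of 22.1%. The clathrin heavy chain gene Chc had 80.5% of 2786 reads and 88.8% of 3627 at its proximal site. The lipid kinase gene fwd, which male germ cells need for cytokinesis, had 60.0% and 77.7%. The endosomal GTPase genes lay lower, with 23.3% and 21.0% in Rab11 and 16.8% and 13.3% in Rab5, whose proximal window is intronic. Rop, which acts in membrane fusion as a Sec1/Munc18 protein, had 4 of 290 and 9 of 357 reads (1.38% and 2.52%). The microtubule-binding CLASP gene chb had 0 of 57 and 2 of 94. Sec71, an Arf exchange factor, had only 2 reads in library 1, both proximal, and 4 of 44 in library 2, so that its share cannot be given with useful precision.

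Of 20 kinase and growth signalling genes 10 were measured, with a median of 29.3%. Of all 517 entries 62 were led by the proximal site in both libraries, as were 4 of these 10 genes. They were Akt1, the kinase of insulin signalling, with 88.5% and 78.0%, the NDR kinase gene trc with 78.7% and 85.0%, the BMP pathway ubiquitin ligase gene Smurf with 57.6% and 78.7%, and the phosphatase gene PRL-1 with 51.9% and 63.6%. All 4 passed the exact Fisher test between the libraries (highest adjusted p = 0.0112, Akt1), as did 6 of the 10 listed entries and 45.3% of all those measured. The distal site led in Tsc1, which restrains TOR, with 21.9% and 20.8% proximal, and in the adaptor gene drk with 22.7% and 20.2%. These pairs of values, and the 2.82% and 3.10% of the casein kinase gene dco, were close. The co-Smad gene Med had 8.07% and 4.51%, Cdk5 16.4% and 28.0%, and aPKC, a kinase of cell polarity, 47.9% and 24.8%. Windows of Med, Cdk5 and aPKC overlap a gene on the opposite strand and those of PRL-1 one on the same strand.

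**Figure D5:**
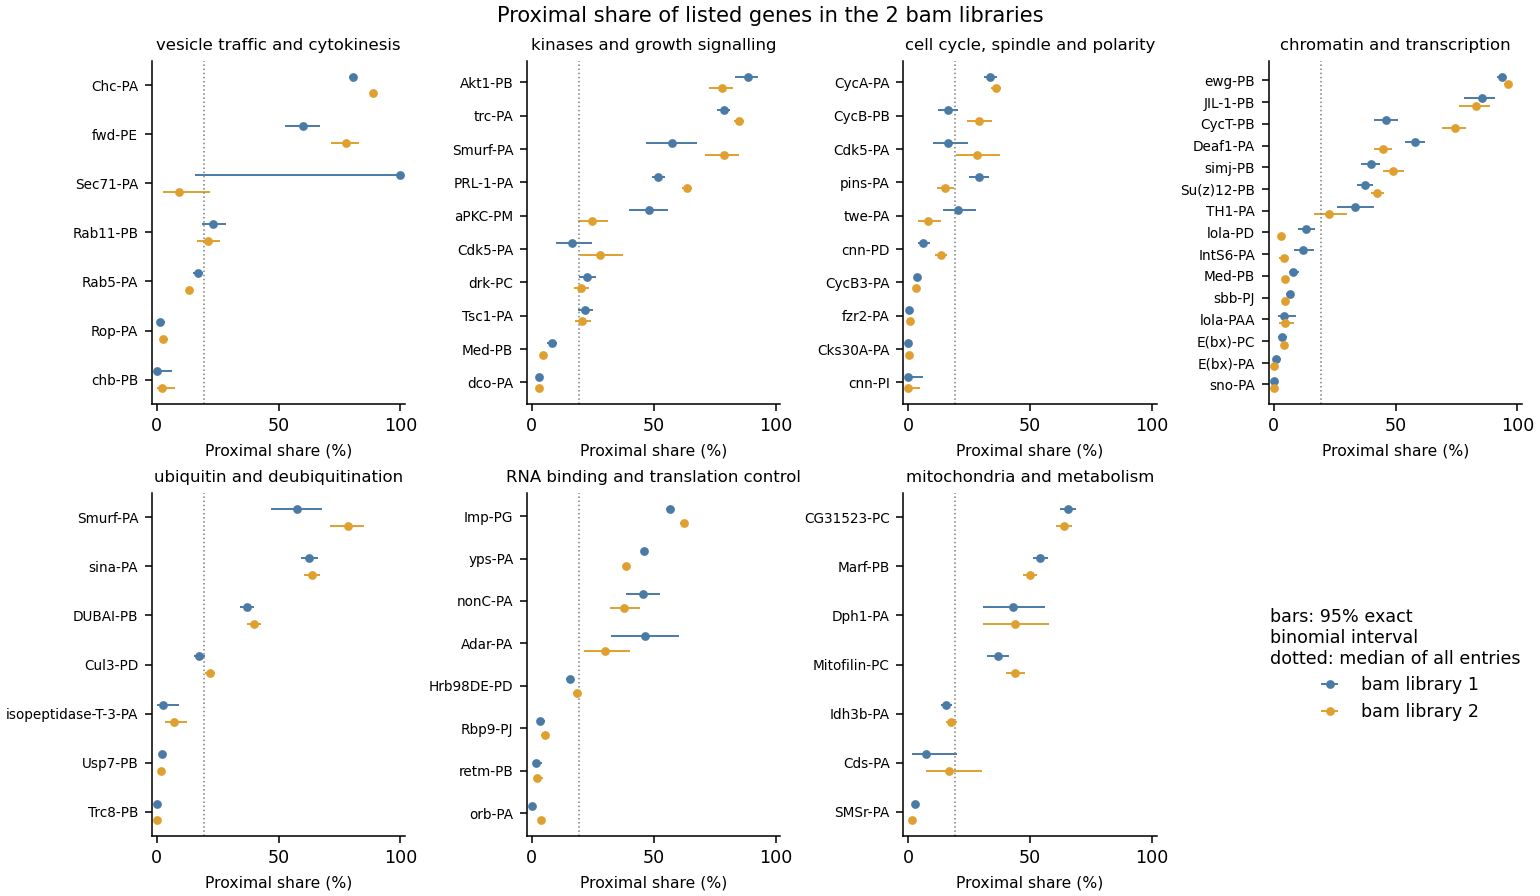
Proximal share (x axis, percent) of the measured members of 7 gene lists, one row per entry, in bam library 1 (blue) and bam library 2 (orange) with 95% exact binomial intervals. The dotted line is the median of all entries, 19.3%. Cell cycle members all lie below 50%, and 422 of all 517 entries lie at or under it in both libraries. Chromatin members run from ewg at 93.6% and 96.0% down to sno at 0.279% and 0.128%.

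No cell cycle, spindle or polarity entry was led by the proximal site in either library. The same held for 422 of all 517 entries. These 10 list entries, of 9 genes among 20 listed, had a median of 11.97%. The mitotic cyclins differed among themselves. CycA had 372 of 1104 reads (33.7%) and 823 of 2282 (36.1%) at the proximal site, CycB had 16.2% and 29.0%, and CycB3 had 3.51% and 3.32%. In pins, which orients mitotic spindles, the share was 29.0% and 15.0%, and in twe, the Cdc25 phosphatase of meiosis, the proximal site held 30 of 147 and 12 of 150 reads; the twe windows overlap a gene on the opposite strand. The proximal site of fzr2, an activator of the anaphase-promoting complex, held 5 of 1717 and 12 of 1935 reads, and that of Cks30A, a Cdk1-binding protein, 0 of 428 and 2 of 468. The fzr2 windows overlap another gene on the same strand. The centrosome gene cnn has 2 entries. Its entry cnn-PD had 6.12% and 13.3%, and cnn-PI had 0 of 59 and 0 of 72.

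The chromatin and transcription list ran from one end of the range to the other. Of all 517 entries, 118 lay under 5% and 78 above 50%. In this list 15 entries, of 13 genes among 20 listed, had a median of 8.12%, with 4 under 5% and 4 above 50%. Besides ewg, the proximal site led in both libraries in JIL-1, a histone H3 kinase, with 85.3% and 83.1%. In CycT and Deaf1 it led in 1 library and in the mean, with the values given above. The Polycomb gene Su(z)12 had 37.4% and 42.5%, simj 39.8% and 49.1%, and TH1, part of the NELF complex that pauses polymerase, 33.3% and 22.6%. The Integrator subunit gene IntS6 had 12.1% and 4.03%, and sbb had 60 of 917 and 55 of 1232 reads. Few proximal reads were found in sno, with 1 of 359 and 1 of 783. The NURF remodeller gene E(bx) had 2 of 248 and 1 of 398 in its entry E(bx)-PA, and 16 of 478 and 40 of 941 in E(bx)-PC. The transcription factor gene lola also has 2 entries, lola-PAA with 4.35% and 4.65% and lola-PD with 13.2% and 3.04%.

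Among 7 measured ubiquitin genes of 14 listed the median was 19.6%. Besides Usp7, Trc8 and Smurf, the ligase gene sina had 62.6% and 63.9%, with windows that overlap a gene on the opposite strand. The scaffold gene Cul3 had 17.4% and 21.8%, and the deubiquitinase genes DUBAI and isopeptidase-T-3 had 37.0% and 39.9%, and 2.56% and 6.99%. Of the 8 measured genes of 20 listed for RNA binding and translation control, with a median of 27.7%, Imp alone was led by the proximal site in both libraries. The germ line CPEB protein gene orb had 2 of 877 reads (0.228%) at its proximal site in library 1 and 41 of 1108 (3.70%) in library 2 (exact Fisher test, adjusted p = 1.23e-07). Its proximal window lies on 3R (23265654 to 23265684). The proximal shares of the ELAV family gene Rbp9 were 3.36% and 5.35%, and those of retm 1.67% and 2.29%. The decay kinase gene nonC had 45.5% and 38.0%, and the hnRNP gene Hrb98DE had 15.7% and 18.4%, with an intronic distal window.

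The list for mitochondria and metabolism had 7 measured genes of 12, with a median of 40.4% and the closest libraries of these lists (median difference 2.04 points). CG31523 had 65.7% and 64.0% at its proximal site. Marf, the fly mitofusin, had 54.3% and 50.0%, and its windows overlap a gene on the opposite strand. Mitofilin, which organises the inner membrane, had 36.8% and 43.9%, and Dph1, a diphthamide synthesis enzyme, 43.1% and 43.9% of 65 and 57 reads. The sphingolipid synthase relative SMSr had 2.85% and 1.61%, and the lipid enzyme gene Cds had 3 of 41 and 8 of 48 reads. The Cds windows overlap a gene on the opposite strand. The 3 measured genes of the cyst cell and hub list were not alike. Imp was led by the proximal site, with 56.7% and 62.3% as above. The transcriptional regulators chinmo and zfh1 were led by the distal site, with 7.77% and 11.9% and with 8.21% and 3.74% at the proximal one.

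The remaining entries gave no share. The entries of CG45766, Hr3 and hec had 0 reads in both libraries, and 7 others had a mean below 10 reads. CG5639 and Slik had 0 reads in library 1, and 25 and 29 in library 2.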

How the data were processed

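Testes were profiled with Lexogen QuantSeq forward libraries. The authors deposited raw read counts at poly(A) windows. The run log names PolyA-miner, blocks of 30 bp, an unstranded setting of 0, no molecular identifiers, a BDGP6 genome (FASTA 6.28), a gene minimum of 10, a site minimum of 0.05 and an A content limit of 0.65. Bowtie and SAMtools stand without versions in the submitters' processing notes. The bam columns held the same counts in the 3 tables, and the 2 overexpression columns of each table were not used.

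From these counts, proximal shares, exact binomial intervals and Fisher tests were computed with scipy 1.17.1 in Python 3.11.15, with a minimum mean of 10 reads and an adjusted p threshold of 0.05. The Fisher test was tested on simulated counts. TMM factors came from edgeR 4.0.16 and size factors from DESeq2 1.42.0, as scaling alternatives. Of 529 entries, 526 matched the Ensembl annotation of BDGP6 by symbol and 3 by position. In the authors' gene list 17017 of 17807 symbols matched it, 16956 at the same position.

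Members and lists were chosen with earlier results of these data known. Named entries were the 8 with most reads; the 6 lowest, 6 highest and 6 nearest 50% in share, with a mean of 100 or more reads; the 8 largest and 4 smallest differences (these 4 all at 0% in both libraries: ebo, Herp, CG3982 and Trc8); the 5 widest and 5 narrowest spacings; the 5 largest with 3 windows; and list members. Others were chosen after their values were seen. Alternatives changed the read minimum, the sites counted as proximal, overlapping entries, pooling, the test and the scaling. Sequence around the windows was not analysed here. Of lists not described, 1 of 12 spermatocyte markers (twe) and 0 of 7 sheath, muscle and fat markers were measured.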

Additional observations from a re-analysis of the deposited data

How the results depend on the processing

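The median proximal share of 19.3% became 20.8% when all but the most distal window counted as proximal and 17.9% without entries that overlap another gene. It ranged from 17.8% to 18.7% with 1 library left out, because these are medians of single libraries and not of means per entry. The cause of the other changes was not tested. Entries called between libraries numbered 156 of the fewer entries, 369, without an overlap. They numbered 229 to 239 under the other settings, against 234 of 517. The value of 229 is for a mean of 50 or more reads, which also leaves fewer entries. Without overlapping entries, 88 of 369 entries (23.8%) lay under 5% and 53 (14.4%) above 50%. Among all 517 entries 118 (22.8%) lay under 5% and 78 above 50%. Leaving out the 8 entries with windows under 100 bp apart, chosen after seeing the data, gave 232. No paired analysis was possible because the libraries form 1 group. The test between libraries needs both, so it has no value with 1 left out. Hexamer counts around windows were not run, since they need genome sequence. Entries past 2-fold numbered 24 with a mean of 50 or more reads, which leaves out the 20 entries with 10 to 49 reads. They numbered 34 or 35 under the other settings, against 33 of 517.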
